A study of Mus musculus with 2 samples.

Results

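The UDP-glucuronosyltransferase and cytosolic sulfotransferase genes were followed in livers of mice that lack Lpcat3 in hepatocytes. All probe sets whose gene symbol begins with Ugt1, Ugt2, Ugt3 or Sult were taken, and the 3 probe sets that list several Ugt1a genes were counted as 1 Ugt1a locus. This gave 31 probe sets of 25 genes (12 Ugt and 13 Sult), of 34949 probe sets of 18195 genes in all. L-Lpcat3 KO mice carried homozygous floxed alleles (Lpcat3fl/fl) and an Albumin-Cre transgene, which acts in hepatocytes, so that other liver cells keep the gene. Flox/Flox mice had the same floxed alleles and no Cre, and deletion and the presence of Cre cannot be told apart here. All mice were 12-week-old males on chow that had been fasted for 6 hr. RNA of 5 livers per genotype was pooled and hybridized to 1 Affymetrix mouse array, so there are no replicates, no test was possible and the ratios carry no error among mice.

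Glucuronidation and sulfation are the main conjugation reactions of the liver. UDP-glucuronosyltransferases sit in the membrane of the endoplasmic reticulum and move glucuronic acid from UDP-glucuronic acid onto bilirubin, steroids, bile acids and drugs. Sulfotransferases of the Sult family are soluble and take sulfate from the donor PAPS for phenols, catecholamines, steroids and bile acids. Both reactions make lipophilic compounds soluble in water for export in bile and urine. The Ugt1a locus joins alternative first exons to one set of shared exons, and Ugt2 and Sult genes form clusters of close paralogs, so a probe set may read RNA of a neighbour.

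Values are MAS5 signals, a linear intensity for each probe set. The mean signal without the lowest and highest 2% was the same on both arrays, which had thus been scaled alike. A floor was set at the median of all signals (76.4), and a gene was measured if its brightest probe set lay above it on at least 1 array. The Lpcat3 signal was 1305 in L-Lpcat3 KO and 3310 in Flox/Flox (log2 ratio -1.34); whether its probe set lies in the floxed exon was not tested. Hepatocyte markers were all bright: the 8 genes lay between 20894 and 54827 on both arrays, with a summed signal of 336391 in L-Lpcat3 KO and 344309 in Flox/Flox. Small intestine and kidney also hold these enzymes. Of 6 intestinal markers on the array, 5 were below the floor on both arrays, Vil1, Cdh17 and Muc2 among them; the exception was Lgals4 (1153 in L-Lpcat3 KO, 1187 in Flox/Flox). Of 6 markers of kidney tubule, 3 were below the floor on both arrays, and no signal of the others passed 113. By the brightest probe sets, all 7 Kupffer cell markers were lower in L-Lpcat3 KO, with log2 ratios from -0.54 to -0.06. Their summed signal was 8236 against 9191 in Flox/Flox. All 5 sinusoidal endothelial markers were higher (7773 against 6565), where 49.3% of all measured genes were lower. Both counts were the same under 3 other scalings, though median centring could not have changed the first. A further Fcgr2b probe set was lower (546 in L-Lpcat3 KO, 593 in Flox/Flox, -0.12), while others of Fcgr2b were higher (0.51 and 0.04). A second Lyve1 probe set was level (0.00). Of 6 bile duct markers 3 were measured, with log2 ratios from -1.06 to 0.75; the lowest was Sox9, near the floor at 77.6 in L-Lpcat3 KO and at 162 in Flox/Flox. Their part in the results that follow was not tested.

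Of the 25 conjugation genes, 17 were measured, each above the floor on both arrays, and 8 were below it on both. None of the 17 reached a 1.5-fold difference in either direction, and therefore none reached 2-fold. Among all 12060 measured genes, 4% were higher in L-Lpcat3 KO by 1.5-fold or more and 3.14% were lower by that size, and 0.556% and 0.514% passed 2-fold in these directions. Under median centring the share of higher genes among all those past 1.5-fold was 40.9%, against 56.0% as deposited. The share past 1.5-fold depended on brightness: it was 13.2% of genes with a mean signal under 500, 1.89% between 500 and 5000, and 0.365% over 5000. Since 11 of the 17 genes had a mean signal over 5000, a count of 0 is close to that background and is not a result about these enzymes. At the smaller size of 1.2-fold, a limit chosen after the values had been seen, 0 genes were higher and 3 were lower (Sult5a1, Ugt2b37 and Sult1c2), where the backgrounds are 15.5% higher and 13.6% lower. These shares also depend on brightness: over a signal of 5000 they were 2.92% higher and 3.01% lower, and none of the 11 genes there passed 1.2-fold. The 3 lower genes were all dimmer. Sult5a1 and Ugt2b37 had mean signals between 500 and 5000, where 428 of 5227 genes were lower by 1.2-fold or more. Sult1c2 lay under 500, where 1179 of 5737 genes were. In bulk tissue, fewer cells of a type and less RNA per cell cannot be told apart.

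Small differences nevertheless ran mostly one way. Of the 17 genes, 15 had a lower signal in L-Lpcat3 KO and 2 a higher one, against 49.3% of all measured genes that were lower. With other scalings of the arrays the count of lower genes was 16 (median centring), 12 (quantile normalization) and 13 (loess). Among all measured genes 63.1%, 49.5% and 49.8% were lower under these scalings, in the same order. Median centring lowers all 17 ratios alike, so its count could not fall. With the mean of the probe sets of each gene, 14 of the 17 were lower, against 48.3% of all genes. The median log2 ratio was -0.09 over the 17 genes, -0.04 over 11 Ugt genes and -0.14 over 6 Sult genes, beside 0.00 for all genes. Bright genes as a whole lay slightly below 0: among the 526 genes with a mean signal over 10000, 57.2% were lower in L-Lpcat3 KO and the median was -0.02. The 11 conjugation genes in that range had a median of -0.04, and 10 of them were lower. Their log2 ratios had an SD of 0.059 across genes, against 0.139 for all 526. The ratios of the 526 ran from -1.20 to 0.56, while 500 of them lay within 1.2-fold. A few outlying genes can widen that SD, so the pair does not show that these 11 genes are unusually alike. The 8 hepatocyte markers, also over a signal of 10000, were lower in 7 of 8 cases as deposited, in 8 after median centring, in 3 after quantile normalization and in 4 after loess.

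**Figure D1:**
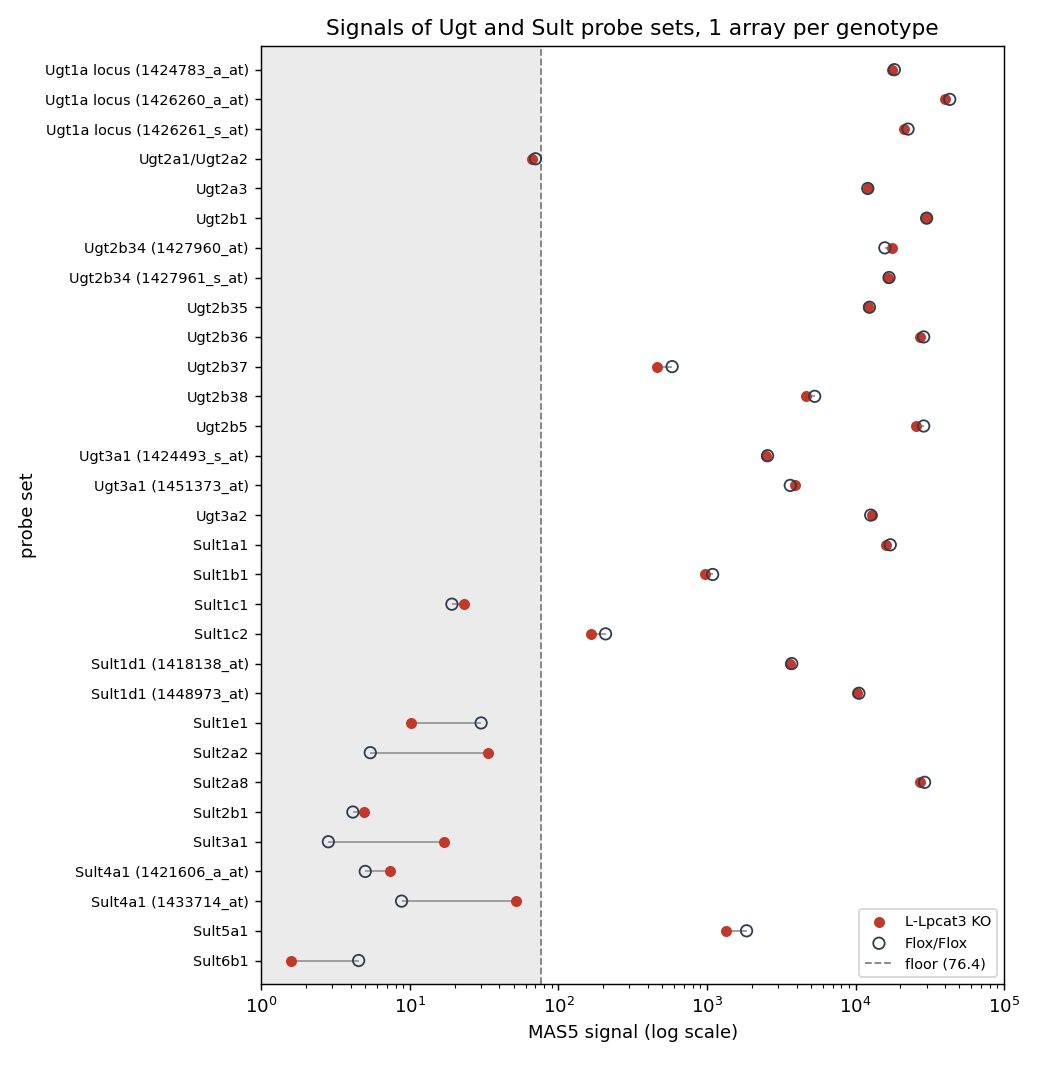
MAS5 signals (x axis, log scale) of the 31 Ugt and Sult probe sets (y axis) in L-Lpcat3 KO (filled red) and Flox/Flox (open), 1 array each; the dashed line is the floor of 76.4 and probe sets in the grey area were below it on both arrays. Symbols of the 22 probe sets above the floor nearly coincide, and wide gaps occur only below it.

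**Figure D2:**
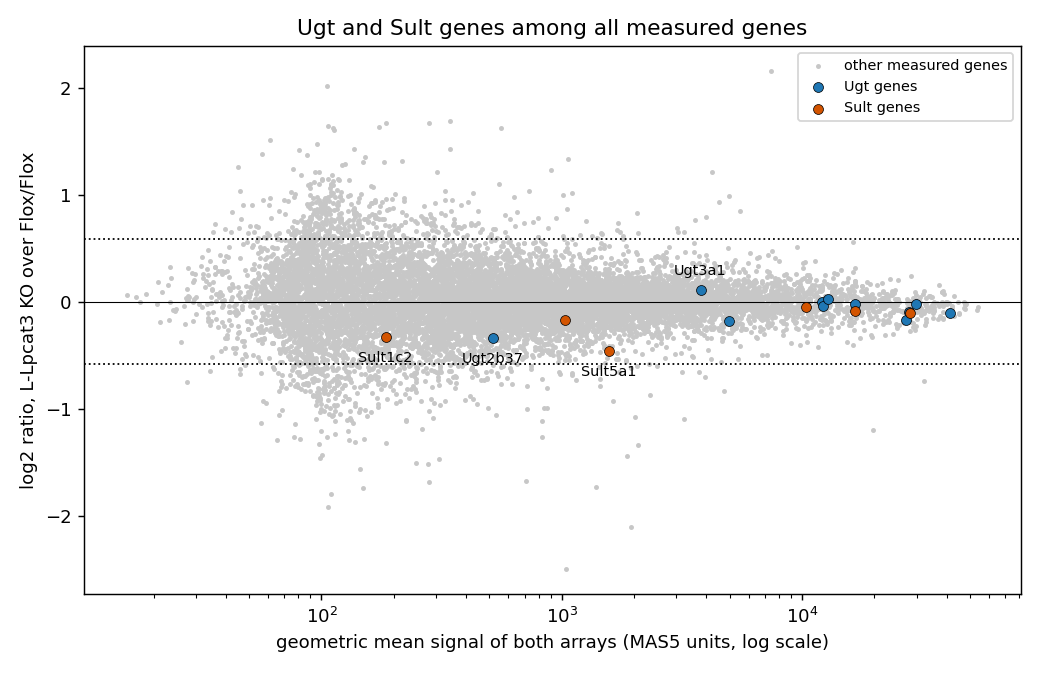
Each of 12060 measured genes is a grey point placed by its geometric mean signal over both arrays (x axis, log scale) and its log2 ratio on the y axis, L-Lpcat3 KO over Flox/Flox, with 11 Ugt genes in blue and 6 Sult genes in orange; dotted lines mark 1.5-fold. All 17 coloured points lie between the dotted lines, the lowest being Sult5a1 at -0.46.

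The Ugt1a locus encodes the enzyme that conjugates bilirubin, Ugt1a1, together with isoforms that act on phenols and drugs. Its 3 probe sets each list 8 Ugt1a genes, so that no single isoform can be read. The brightest gave 39863 in L-Lpcat3 KO and 42987 in Flox/Flox (log2 ratio -0.11). The other two gave 17532 against 18215 (-0.06) and 21079 against 22533 (-0.10). All 3 were thus lower in L-Lpcat3 KO by less than 1.2-fold, and they spanned 0.054 on the log2 scale among themselves. After quantile normalization and loess the brightest stayed below 0 (-0.05 and -0.08). Median centring, which lowers every such ratio alike, gave -0.19. These probe sets share the same arrays, so their likeness says nothing of the spread among mice.

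Upstream sequence was read for the conjugation genes because liver factors act close to the start of these genes. RefSeq promoter windows (GRCm38.p6) were at hand for 36 genes in 39 windows, and the 250 bases before each annotated start were searched on both strands. The letters GTTAATNAT, part of the site of the liver factor HNF1, were found in 8 of 39 windows (20.5%), against 0.737% of all 32851 windows. The shorter GTTAAT, which this motif contains, was in 13 windows (33.3%, against 6.43%). The windows of paralogs share ancestry and are not independent. Matches were in Ugt1a1, Ugt1a9, Ugt1a10, Sult1d1 and the Sult2a genes Sult2a3, Sult2a4, Sult2a5 and Sult2a6, which no probe set names here. The letters GCGTG, the core bound by the dioxin receptor Ahr, were in 5 windows (12.8%, against 28.2%). A match is a description of the letters and not evidence of a bound factor.

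The last 100 bases before the start are shown for the 3 Ugt1a first exons and for Sult1d1, with the match in capitals, because their positions can be compared directly. In Ugt1a1 (chr1:88211859-88211958, plus strand) it lies at -44 to -36 from the start, in Ugt1a9 (chr1:88070679-88070778, plus strand) at -94 to -86, in Ugt1a10 (chr1:88055311-88055410, plus strand) at -74 to -66, all read on the opposite strand, and in Sult1d1 (chr5:87569007-87569106, minus strand) at -79 to -71. Ugt1a9 and Ugt1a10 go on alike after the match.
Ugt1a1: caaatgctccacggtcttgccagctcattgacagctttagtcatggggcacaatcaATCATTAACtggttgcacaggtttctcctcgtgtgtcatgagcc
Ugt1a9: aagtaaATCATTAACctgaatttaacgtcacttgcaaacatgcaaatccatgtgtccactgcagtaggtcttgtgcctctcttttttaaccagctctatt
Ugt1a10: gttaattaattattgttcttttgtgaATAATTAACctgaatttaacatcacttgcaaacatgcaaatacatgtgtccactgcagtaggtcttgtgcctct
Sult1d1: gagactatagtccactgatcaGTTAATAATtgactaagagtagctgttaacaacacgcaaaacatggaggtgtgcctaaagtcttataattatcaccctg

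The Ugt2b subfamily conjugates steroids, bile acids and drugs. All 7 of its genes were measured, and all 7 were lower in L-Lpcat3 KO as deposited. Fewer were lower after quantile normalization (5, without Ugt2b1 and Ugt2b34) and after loess (6, without Ugt2b1). Median centring lowers all 7 ratios alike and could not change the count. With the mean of the probe sets of each gene, 6 were lower (without Ugt2b34). The log2 ratios as deposited lay between -0.33 and -0.02, with a median of -0.09. Ugt2b37 had the lowest ratio, with a signal of 462 in L-Lpcat3 KO and 582 in Flox/Flox (1.26-fold lower). Ugt2b38 gave 4667 in L-Lpcat3 KO and 5302 in Flox/Flox (-0.18). For Ugt2b5 the signals were 25496 and 28714, in the same order of genotypes (-0.17).

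The other Ugt2b genes differed by less. Ugt2b36 was 26929 in L-Lpcat3 KO and 28707 in Flox/Flox (-0.09). Ugt2b35 was 12065 in L-Lpcat3 KO and 12386 in Flox/Flox (-0.04), and Ugt2b1 was 29623 against 30046 (-0.02). Ugt2b34 has a pair of probe sets of almost the same brightness that went opposite ways. One gave 16553 in L-Lpcat3 KO and 16781 in Flox/Flox (-0.02), and the other 17646 against 15726 (0.17). This gap of 0.186 within 1 gene is about as large as the ratio of Ugt2b38 or Ugt2b5. Of 4 genes with several measured probe sets, Ugt2b34 and Ugt3a1 had ratios of both signs.

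The 60 bases before the start are shown for all 7 Ugt2b genes, as they bear on how alike these neighbours are. Capitals mark AGGTCA, the half-site of many nuclear receptors, which was in 10 of 39 windows of conjugation genes (25.6%) and in 14.0% of all windows. It lies at -25 to -20 in Ugt2b36 (chr5:87092556-87092615, minus strand), at -22 to -17 in Ugt2b5 (chr5:87140341-87140400, minus strand), at -39 to -34 in Ugt2b37 (chr5:87254789-87254848, minus strand) and at -25 to -20 in Ugt2b38 (chr5:87424204-87424263, minus strand). These 4 are the Ugt2b genes with the 4 lowest ratios, a pattern noticed after both had been seen and given as a description. The step from Ugt2b36 (-0.09) to the next gene, Ugt2b35 (-0.04), is smaller than the gap of 0.186 between the probe sets of Ugt2b34. With 1 array per genotype this order was not tested. Ugt2b34 (chr5:86906938-86906997, minus strand) and Ugt2b1 (chr5:86926504-86926563, minus strand) had no match in 250 bases. Ugt2b35 (chr5:87000800-87000859, plus strand) had its match farther upstream, outside the bases printed. Its printed line holds aggaca amid bases like those around the match of Ugt2b36, and this differs from AGGTCA in 1 letter. Near the start, Ugt2b35 is thus set apart from the 4 genes by that letter of the half-site.
Ugt2b36: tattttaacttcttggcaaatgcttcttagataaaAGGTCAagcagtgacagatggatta
Ugt2b5: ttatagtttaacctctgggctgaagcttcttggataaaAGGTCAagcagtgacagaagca
Ugt2b37: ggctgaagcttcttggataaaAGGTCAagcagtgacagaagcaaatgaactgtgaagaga
Ugt2b38: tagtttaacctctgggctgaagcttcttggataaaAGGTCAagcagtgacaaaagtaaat
Ugt2b34: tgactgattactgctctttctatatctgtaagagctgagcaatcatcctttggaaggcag
Ugt2b1: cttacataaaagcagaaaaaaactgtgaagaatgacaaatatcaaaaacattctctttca
Ugt2b35: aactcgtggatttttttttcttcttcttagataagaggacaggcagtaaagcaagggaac

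Around the capitals the first 4 lines are close to the same. Over 100 bases before the start, pairs of these 4 genes were between 64.0% (Ugt2b36 and Ugt2b37) and 81.7% (Ugt2b5 and Ugt2b38) identical after alignment. Pairs with another Ugt2b gene lay between 44.5% (Ugt2b1 and Ugt2b35) and 61.7% (Ugt2b35 and Ugt2b36). These bases lie outside the transcripts and say nothing of what the probes read. The probes' sequences were not used here, so whether Ugt2b probe sets pick up RNA of related genes was not tested.

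The Ugt2a and Ugt3a genes differed little. Ugt2a3 gave 12062 in L-Lpcat3 KO and 12068 in Flox/Flox (log2 ratio 0.00). The probe set shared by Ugt2a1 and Ugt2a2, enzymes known from olfactory tissue, was below the floor on both arrays (66.2 in L-Lpcat3 KO and 70.0 in Flox/Flox). The Ugt3a genes use sugars other than glucuronic acid, as known from the human enzymes. Ugt3a2 was 12895 in L-Lpcat3 KO and 12635 in Flox/Flox (0.03). Ugt3a1 was 3932 against 3632 by its brightest probe set (0.11) and 2500 against 2554 by the other (-0.03). By their brightest probe sets, these 2 genes were the members above 0. Ugt3a2 was below 0 after median centring, and for Ugt3a1 the direction was not shared by both probe sets.

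On chromosome 5 the Ugt2 genes are followed by Sult1b1, Sult1d1 and Sult1e1, and the annotation places no other protein-coding gene among these 13. Probe sets covered the cluster as 12 genes, of which 10 were measured. All 10 were below 0 as deposited, 7 after quantile normalization and 8 after loess. Median centring lowers every such ratio alike, so the 10 stayed below 0 by construction. With the mean of the probe sets of each gene, 9 were below 0 (without Ugt2b34). Their ratios as deposited had a median of -0.07, and the highest, that of Ugt2a3, rounds to 0.00. Ugt2b36, Ugt2b5 and Ugt2b37 lie side by side, and Ugt2a3, at 0.00, lies between Ugt2b37 and Ugt2b38.

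**Figure D3:**
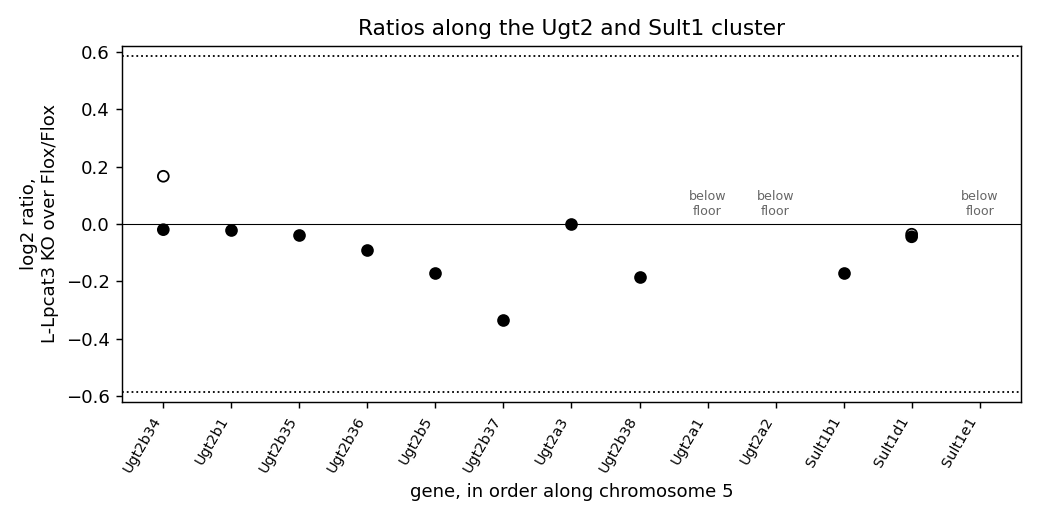
The 13 Ugt2 and Sult1 genes of chromosome 5 stand in their order along it (x axis, not to scale) with the log2 ratio, L-Lpcat3 KO over Flox/Flox, of their probe sets (y axis); filled points are the brightest probe set of a gene, open points another, and dotted lines mark 1.5-fold. Points run from -0.33 for Ugt2b37 to 0.17 for the second probe set of Ugt2b34.

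Among the sulfotransferases, all 6 measured genes were lower in L-Lpcat3 KO, also after quantile normalization and loess. Median centring could not have changed this count. Sult5a1, whose substrates are little known, had the lowest ratio of all the conjugation genes: 1345 in L-Lpcat3 KO and 1845 in Flox/Flox, 1.37-fold lower (log2 ratio -0.46). Its single probe set leaves this without a second reading. Under the alternatives that were run for single genes, 135 values in all, the log2 ratios of the 17 genes stayed between -0.54 and 0.19.

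The Sult1 genes sulfate phenols, thyroid hormones and catecholamines. Sult1a1, the main phenol sulfotransferase, gave 16081 in L-Lpcat3 KO and 17110 in Flox/Flox (-0.09). Sult1d1, which acts on catecholamines in the mouse, gave 10199 in L-Lpcat3 KO and 10519 in Flox/Flox (-0.04) by its brightest probe set, and 3625 against 3716 (-0.04) by the other. Sult1b1 was 969 in L-Lpcat3 KO and 1091 in Flox/Flox (-0.17). Sult1c2 was the dimmest measured member, at 165 in L-Lpcat3 KO and 207 in Flox/Flox (1.26-fold lower). At that brightness 13.2% of all genes passed 1.5-fold, so the ratio of Sult1c2 lies well within what other dim genes showed. The hydroxysteroid and bile acid sulfotransferases of the Sult2 group were represented above the floor by Sult2a8, an enzyme of bile acid sulfation in mouse liver. Its signal was 27042 in L-Lpcat3 KO and 29121 in Flox/Flox (-0.11).

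The 9 probe sets below the floor on both arrays belong to Ugt2a1 with Ugt2a2 and to 7 Sult genes. Their signals ran from 1.59 to 66.2 in L-Lpcat3 KO and from 2.83 to 70.0 in Flox/Flox. The L-Lpcat3 KO array gave the higher signal for 6 of the 9 and the lower one for 3. Sult2a2, a hydroxysteroid sulfotransferase, was 33.4 in L-Lpcat3 KO and 5.41 in Flox/Flox. Sult3a1, which sulfates amines, was 16.9 in L-Lpcat3 KO and 2.83 in Flox/Flox. Both genes are known as female-predominant in mouse liver, and these livers were male. Sult4a1, a gene of brain, was 51.7 in L-Lpcat3 KO and 8.79 in Flox/Flox by one probe set and 7.32 against 5.01 by the other. The estrogen sulfotransferase Sult1e1 went the other way, with 10.2 in L-Lpcat3 KO and 30.1 in Flox/Flox, as did Sult6b1 (1.59 and 4.52). The oxysterol sulfotransferase Sult2b1 (4.88 in L-Lpcat3 KO, 4.13 in Flox/Flox) and Sult1c1 (23.0 and 19.2) differed little. Among all 14296 probe sets of genes below the floor on both arrays, 42.1% differed at least 2-fold and 14.6% at least 5-fold in either direction. No fold is therefore given for these genes. A difference at such signals was not detectable on these arrays, which does not show that the transcripts were absent or alike.

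Genes that feed or follow conjugation were set beside the enzymes. Of 6 genes of UDP-glucuronic acid supply, none passed 1.5-fold by its brightest probe set, and the median log2 ratio was -0.04, beside 0.00 for all genes. The brightest were Ugp2, which makes UDP-glucose (12563 in L-Lpcat3 KO, 12618 in Flox/Flox), and Ugdh, which oxidizes it to UDP-glucuronic acid (8340 in L-Lpcat3 KO, 8730 in Flox/Flox, -0.07). Of 7 other probe sets of these genes above the floor, 1 passed 1.5-fold, a dim one of Pgm1 (269 in L-Lpcat3 KO, 136 in Flox/Flox, 1.97-fold higher). Of 8 genes of PAPS supply and turnover, none passed 1.5-fold by its brightest probe set either, with a median of -0.09. Among all measured genes 4% were higher in L-Lpcat3 KO by that size and 3.14% were lower. None of 6 and none of 8 is close to that background and is no result about these lists. The PAPS synthase Papss2 was 8407 in L-Lpcat3 KO and 8066 in Flox/Flox (0.06), and Bpnt1, which degrades the spent donor, was 2671 against 2646 (0.01). Of 8 other probe sets, 1 passed 1.5-fold, a dim one of Slc35b2, a PAPS transporter (228 in L-Lpcat3 KO, 128 in Flox/Flox, 1.78-fold higher). The brightest probe set of Slc35b2 was 918 in L-Lpcat3 KO and 716 in Flox/Flox (0.36).

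Of 6 deconjugating genes, 1 passed 1.5-fold, the sulfatase Arsg, at 629 in L-Lpcat3 KO and 410 in Flox/Flox (1.53-fold higher), beside 4% of all measured genes higher by that size. Its mean signal lies just over 500, between a range where 13.2% passed 1.5-fold either way and one where 1.89% did, and 1 gene of 6 is no result about the list. A second Arsg probe set showed 0.36 on the log2 scale. The brightest of that list were the lysosomal sulfatase Arsa (0.10) and Sumf1, which activates sulfatases (0.08), and the list median was 0.07. The 4 exporters of conjugates had a median of 0.20 and none passed 1.5-fold. Abcc3, on the sinusoidal membrane, was 7658 in L-Lpcat3 KO and 5738 in Flox/Flox (0.42), and Abcg2, on the canalicular membrane, was 6715 against 7003 (-0.06). Abcc3 was thus 1.33-fold higher at a mean signal over 5000. In that range 2.92% of 1096 genes were higher by 1.2-fold or more. The ratio of this single gene was not tested. Receptors and liver factors that act on conjugation genes lay within 1.5-fold in 16 of 16 cases by the brightest probe set, with a median of 0.05. With 4% of all measured genes higher by that size and 3.14% lower, this count and that of the exporters are close to the background. The brightest receptors and factors, Hnf4a and Cebpa, had log2 ratios of -0.11 and 0.02. Of 18 other probe sets of these genes, 3 passed 1.5-fold, all dim. A probe set of Rora was higher (264 in L-Lpcat3 KO, 163 in Flox/Flox). A probe set each of Nfe2l2 (128 in L-Lpcat3 KO, 219 in Flox/Flox) and Arnt (75.8 in L-Lpcat3 KO, 117 in Flox/Flox) was lower. By the brightest probe set Rora was also higher (1964 in L-Lpcat3 KO, 1506 in Flox/Flox, 0.38). The brightest probe sets of Nfe2l2 (0.09) and Arnt (0.03) were not lower.

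Because several sulfotransferases differ between the sexes, sex-biased liver genes were read as well. Of 6 measured female-biased genes, 3 passed 1.5-fold upwards in L-Lpcat3 KO and 1 downwards (median 0.58), beside 4% and 3.14% of all measured genes. Abcd2 and Cyp3a44 had mean signals under 500, where 13.2% passed 1.5-fold either way. Cyp17a1 and Acot3 lay between 500 and 5000, where 50 of 5227 genes were higher by 1.5-fold or more. Whether these ratios have to do with sex bias was not tested. Cyp17a1 was 1574 in L-Lpcat3 KO and 776 in Flox/Flox (2.03-fold higher), Acot3 was 1417 against 778 (1.82-fold higher), and Abcd2 was 213 in L-Lpcat3 KO and below the floor in Flox/Flox (at least 2.78-fold higher), although its other measured probe set had a log2 ratio of 0.14. Cyp3a44 was 76.8 in L-Lpcat3 KO, just above the floor, and 120 in Flox/Flox (-0.64). Of the others, Cux2 was 281 in L-Lpcat3 KO and 318 in Flox/Flox (-0.17), Cyp2b13 was 93.1 in L-Lpcat3 KO and below the floor in Flox/Flox, and Cyp2b9 and Hao2 were below the floor on both arrays. The 8 measured male-biased genes had a median of -0.07, and none passed 1.5-fold; the brightest, Cyp7b1 and Cyp2d9, had log2 ratios of -0.26 and -0.20.

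**Figure D4:**
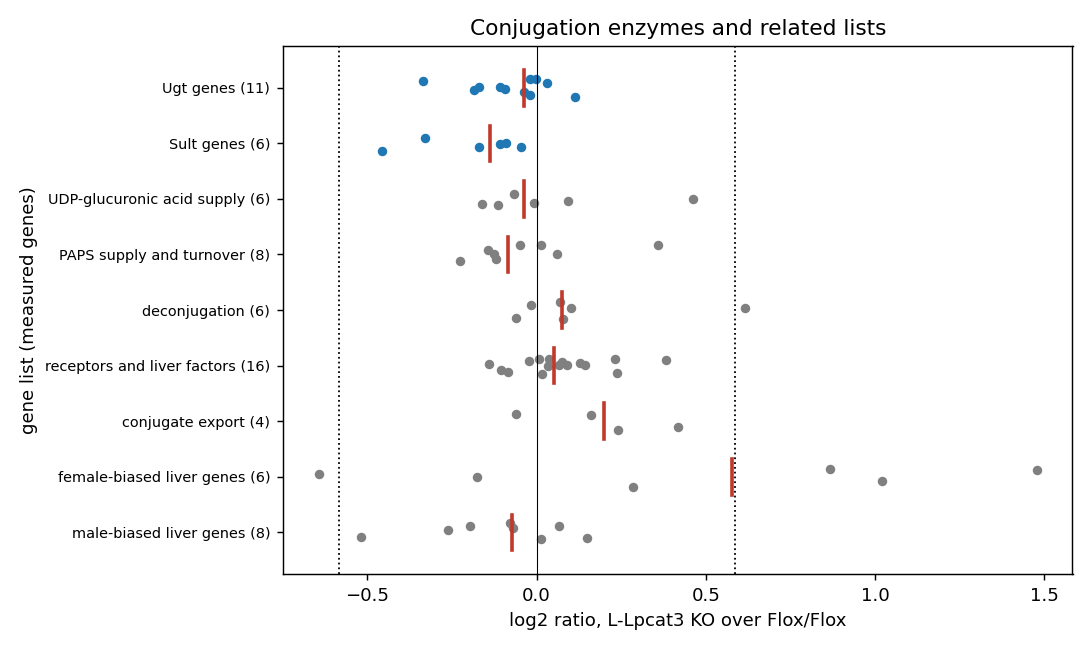
Measured Ugt and Sult genes (blue) and genes of 7 related lists (grey) are placed by their log2 ratio on the x axis, L-Lpcat3 KO over Flox/Flox, 1 point per gene, with the number of genes of each list (y axis) in parentheses; red bars are medians and dotted lines mark 1.5-fold. The Ugt and Sult medians lie at -0.04 and -0.14, and points past the dotted lines are 1 deconjugating gene and 4 female-biased genes.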

How the data were processed

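Total RNA of 5 pooled livers per genotype was measured on 1 array each. Per the labels, the deposited signal intensity values are MAS5 output on a linear scale; no version is named, and the methods cite GeneSpring GX. Such summaries can level off for bright genes and are noisy for dim ones. Log2 was taken with no further scaling. The platform annotation named the probe sets, and RefSeq (GRCm38.p6) gave current symbols through gene IDs: of 45101 probe sets, 34945 had 1 symbol, and others with several genes (928) or no name (9160) were left out. A gene took the value of its brightest probe set. Signals were raised to the floor of 76.4. RefSeq lists 43 members, of which 33 have a probe set. Every measured member is named, with 2 bright genes and those past 1.5-fold from each related list. The members and lists were chosen with earlier results of these data known. The scripts were tested on simulated data. Python 3.11.15 was used with pandas 2.3.3, numpy 2.4.6, statsmodels 0.14.6 (loess), matplotlib 3.10.9 and scipy 1.17.1. Precision is limited by the number of arrays.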

Additional observations from a re-analysis of the deposited data

How the results depend on the processing

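The counts of 0 genes past 1.5-fold held under 3 scalings, a floor at the 75th percentile, a pseudocount of 16, other probe set summaries and probe sets counted singly. With the floor at the 25th percentile, 2 genes (Sult2a2 and Sult4a1) were at least 1.5-fold higher. With neither floor nor filter, 3 were higher (with Sult3a1) and 2 lower (Sult1e1 and Sult6b1), and 5 were at least 1.2-fold lower; by construction these settings add genes below the main floor. The median of Ugt genes ran from -0.12 to -0.02 and that of Sult genes from -0.22 to -0.09, both lowest after median centring. Of 135 values of single genes, 133 moved by at most 0.1, and both others were of Ugt2b34. Many of these values could not move. Another floor leaves a gene above it unchanged, as do other probe set summaries for a gene with 1 probe set. Median centring shifts every such gene by the same amount. Many of the ratios are themselves smaller than 0.1 in size, so this count is no support for them. No paired analysis was possible because each genotype has 1 array. The 1.2-fold size was chosen after seeing the data.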

Other observations

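Ugt8a, a galactosyltransferase of the same superfamily that makes galactosylceramide in myelin, is outside the Ugt1, Ugt2 and Ugt3 families. Both of its probe sets were below the floor on both arrays, with 10.3 in L-Lpcat3 KO and 28.9 in Flox/Flox by the brighter and 5.16 against 5.44 by the other.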
